A study of Mus musculus with 12 samples.

Results

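The Epcam+ tumour peaks described here are 3558 regions of open chromatin that were higher in every Epcam+ tumour sample than in any other sample of a mouse skin ATAC-seq series. They were chosen by measured values. Each paired-end count was scaled to counts per 1000000 counts in peaks (CPM), 0.5 was added and log2 was taken. A peak was kept where the lowest of the 3 Epcam+ tumour samples exceeded the highest of the other 3 samples by at least 1. The choice was made among 173565 eligible peaks on chr1 to chr19, of 177240 in the series, and 2.05% passed. The lists and places below are therefore descriptions of selected regions, and the selecting difference itself supports nothing.

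ATAC-seq uses the Tn5 transposase to insert sequencing adapters into accessible DNA. The tested samples were sorted Epcam+ cells of squamous tumours, with 1 sample from mice that carried K14CreER, p53fl/fl and Rosa-YFP+/+ and 2 from mice that carried Lgr5CreER, p53fl/fl and Rosa-YFP+/+. The other samples were 1 of Epcam- tumour cells with the same Lgr5CreER genotype, 1 of wild-type hair follicle (HF) and 1 of wild-type interfollicular epidermis (IFE). All mice were female and of mixed strain. Cre was driven by the promoter of K14, a keratin of basal keratinocytes, or of Lgr5, a gene of follicle stem cells, and all tumours shared floxed p53 and the YFP reporter. Antibodies to CD45, CD31, CD140a and Epcam were used in the sort. Every group but Lgr5 Epcam+ held 1 sample, so most values below carry no replicate error. Each sample was sequenced once single-end and once paired-end, with 15896612 to 32703016 counts in peaks per run. Of the counts in peaks or no feature, 21.3% to 51.1% fell in peaks. In the paired-end run this share was 38.7% in K14 Epcam+ and 51.1% and 45.7% in the Lgr5 Epcam+ samples. It was 37.9% in Lgr5 Epcam-, 27.5% in HF and 34.0% in IFE. In each run it was thus higher in every Epcam+ tumour sample than in the others, as the selected peaks are. Its part in the set was not tested.

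Epcam is a surface adhesion protein of epithelial cells, and its loss marks tumour cells that have undergone an epithelial to mesenchymal transition (EMT). Carcinoma cells that keep an epithelial state can differ from normal epithelium through activated signalling, among other changes. Ras signalling reaches chromatin through transcription factors such as AP-1 (dimers of Fos and Jun proteins) and the Ets family. Its part in these data was not tested. Distal open regions often act as enhancers, whereas promoters of broadly used genes tend to be rich in CpG and open in most cells.

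Few of the peaks lay at promoters, and those few are shown first because their sequences could be read. Of the 3430 Epcam+ tumour peaks on chromosomes with promoter sequences, 39 (1.14%) overlapped a coding promoter, taken as 250 bases before to 50 after a RefSeq start. The share was 6.63% for all eligible peaks. The 39 peaks met 43 promoter windows of 39 genes, and 35 windows lay wholly inside the peak. Of the 39 peaks, 23 had a difference of at least 1 in the single-end run as well. The following promoters, from RefSeq on GRCm38.p6 (the mm10 coordinates), are written 5′ to 3′ on the strand of the gene. Capitals mark the AP-1 pattern TGANTCA. They were picked after their values were seen, to show a keratinocyte surface protease (Tmprss11b), 3 genes of stressed epithelium (Sprr1b, S100a9 and Il1a), the promoter with a pair of AP-1 patterns that had the largest single-end difference (Arhgap40) and the sort antigen (Epcam).
Tmprss11b, chr5:86676249-86676548, minus strand: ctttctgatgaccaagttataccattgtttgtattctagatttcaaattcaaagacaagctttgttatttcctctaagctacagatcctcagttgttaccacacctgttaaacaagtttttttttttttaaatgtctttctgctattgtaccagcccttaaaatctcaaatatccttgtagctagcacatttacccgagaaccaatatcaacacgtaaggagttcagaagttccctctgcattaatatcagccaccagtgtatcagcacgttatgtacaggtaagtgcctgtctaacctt
Sprr1b, chr3:92438730-92439029, minus strand: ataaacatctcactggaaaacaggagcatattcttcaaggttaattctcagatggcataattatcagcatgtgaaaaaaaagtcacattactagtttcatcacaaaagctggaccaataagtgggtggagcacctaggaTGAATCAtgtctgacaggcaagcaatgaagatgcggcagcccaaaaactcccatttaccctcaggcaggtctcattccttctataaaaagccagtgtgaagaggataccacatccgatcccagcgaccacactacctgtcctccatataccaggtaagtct
S100a9, chr3:90695672-90695971, minus strand: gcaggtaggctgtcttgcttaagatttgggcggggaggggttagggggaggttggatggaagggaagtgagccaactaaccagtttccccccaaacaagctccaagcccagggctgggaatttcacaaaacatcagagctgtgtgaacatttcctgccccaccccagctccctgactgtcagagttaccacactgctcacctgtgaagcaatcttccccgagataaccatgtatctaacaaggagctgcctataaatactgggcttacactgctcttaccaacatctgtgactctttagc
Il1a, chr2:129309923-129310222, minus strand: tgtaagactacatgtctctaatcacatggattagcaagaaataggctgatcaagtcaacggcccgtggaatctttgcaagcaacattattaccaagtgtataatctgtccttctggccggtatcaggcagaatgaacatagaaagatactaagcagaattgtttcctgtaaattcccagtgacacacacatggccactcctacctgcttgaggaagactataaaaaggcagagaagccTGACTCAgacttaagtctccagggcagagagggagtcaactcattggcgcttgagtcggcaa
Arhgap40, chr2:158512546-158512845, plus strand: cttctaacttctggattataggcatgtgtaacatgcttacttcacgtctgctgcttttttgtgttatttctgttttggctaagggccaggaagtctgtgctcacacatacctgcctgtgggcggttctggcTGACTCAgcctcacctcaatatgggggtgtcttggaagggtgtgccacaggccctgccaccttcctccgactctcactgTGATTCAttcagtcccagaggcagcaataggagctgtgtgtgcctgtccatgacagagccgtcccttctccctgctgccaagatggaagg
Epcam, chr17:87635729-87636028, plus strand: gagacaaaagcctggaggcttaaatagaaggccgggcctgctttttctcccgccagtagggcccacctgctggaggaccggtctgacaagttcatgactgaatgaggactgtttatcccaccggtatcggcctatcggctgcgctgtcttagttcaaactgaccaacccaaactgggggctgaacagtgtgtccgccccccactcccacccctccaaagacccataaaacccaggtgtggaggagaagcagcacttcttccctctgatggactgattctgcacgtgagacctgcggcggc

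The AP-1 pattern was in 12 of the 43 promoter windows under Epcam+ tumour peaks (27.9%). It was in 794 of 13335 windows under any eligible peak (5.95%), in 39 of 305 under peaks higher in all 4 tumour samples than in both normals (12.8%), and in 7.06% of all 20084 coding windows. Psg18 and Acox2 each gave a pair of overlapping windows, so the 12 are not all separate promoters, and a window was searched whole where the peak covered part of it. The pattern reads the same on both strands. In the windows printed above its first base lay 111 bases before the start of Sprr1b and 12 before that of Il1a. The Ets pattern CCGGAAG, searched on both strands like the others, was in 1 of the 43 windows (2.33%), the one of Padi3, against 16.5% under any eligible peak. The Tead pattern GGAATG was in 11.6% against 12.1%, the Klf pattern GGGCGGGG in 25.6% against 33.1%, and the Runx pattern TGTGGTT in 4.65% against 3.53%. The Grhl pattern AACCNGGTT was in 0 of the 43 windows, against 0.247% under any eligible peak. The Ets and Tead patterns both hold the letters GGAA but cannot match at the same ones. The promoters under Epcam+ tumour peaks were poorer in CpG: their median was 5 CpG per window and 23.3% held 10 or more, against a median of 20 and 80.3% under any eligible peak. Median GC content was 53.3% against 61.0%. The shares of the patterns were not matched for CpG or GC content. A match is a run of letters and not a measured binding site, and no match says nothing of the factor.

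The promoter peak of Tmprss11b, a membrane serine protease of squamous epithelia, had 16.5, 23.3 and 24.5 CPM in the K14 Epcam+ and Lgr5 Epcam+ samples 1 and 2, against 3.14 CPM in Lgr5 Epcam- cells, 1.48 in HF and 1.45 in IFE. That of Sprr1b, a cornified envelope precursor induced in injured epidermis, had 9.36, 12.6 and 10.2 CPM in the same Epcam+ tumour samples, against 2.03 CPM in Lgr5 Epcam-, 1.36 in HF and 1.04 in IFE. That of S100a9, a subunit of the inflammatory protein calprotectin, had 6.47, 10.6 and 6.22 CPM in Epcam+ tumours, against 1.06 in Lgr5 Epcam-, 1.24 in HF and 1.62 in IFE. In the other samples all 3 were below the median over all eligible peaks, which was 2.26 to 2.71 CPM, apart from Tmprss11b in Lgr5 Epcam- cells. The promoter of Il1a, a cytokine that keratinocytes release on damage, had 10.2, 11.96 and 5.96 CPM in Epcam+ tumours, against 1.16 in Lgr5 Epcam-, 2.22 in HF and 2.15 in IFE. Its single-end difference was 0.97, below the limit of the rule. The promoter of Arhgap40 had 14.8, 22.3 and 19.5 CPM in Epcam+ tumours, against 2.51 in Lgr5 Epcam-, 2.29 in HF and 4.99 in IFE.

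The Epcam promoter shows that a peak of this set can be open elsewhere. It had 30.1, 35.6 and 33.9 CPM in the K14 Epcam+ and Lgr5 Epcam+ samples, against 3.82 CPM in Lgr5 Epcam- cells, 11.8 in HF and 14.7 in IFE. In the single-end run the K14 Epcam+ sample fell to 15.6 CPM beside 15.8 in IFE, and the difference was -0.02 on the log2 scale. The Lgr5 Epcam+ samples had 34.0 and 32.4 CPM in that run. Epcam lies on chr17, and the K14 Epcam+ single-end run was lower across chr15 to chr19, as described below. Of 13 regions around Epcam, 4 belonged to the set. Epcam was used to sort the cells, so its own difference between Epcam+ and Epcam- cells is no finding. The windows under Klrc1, Klra2, Slfn3 and Psg18 also met Epcam+ tumour peaks, but these genes have near-identical relatives, and reads there could have been placed in more than 1 copy.

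**Figure D1:**
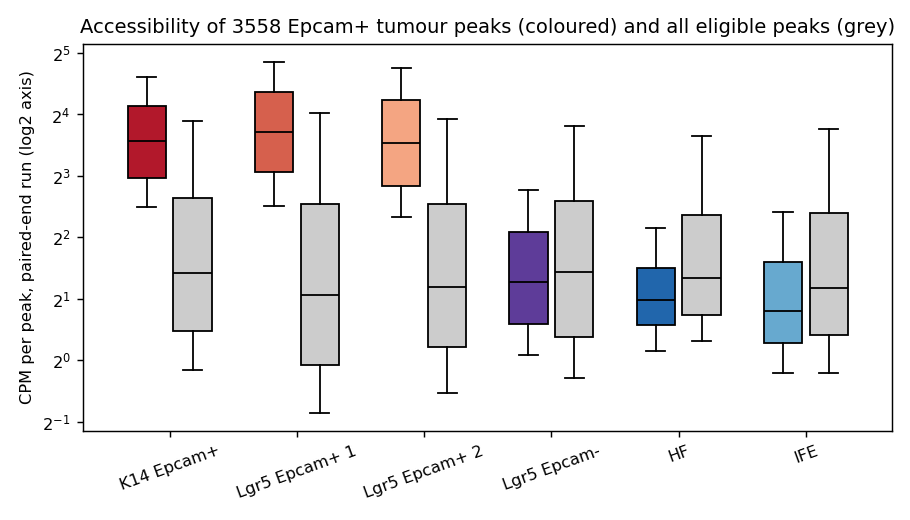
Accessibility per peak in CPM of the paired-end run (log2 axis) for the 3558 Epcam+ tumour peaks (coloured boxes) and all 173565 eligible peaks (grey) in each of the 6 samples. Boxes span the quartiles with the median as a line, and whiskers run between the 10th and 90th percentiles. Median levels of the coloured boxes are 11.6 to 13.2 CPM in the 3 Epcam+ tumour samples, against 1.74 to 2.42 CPM in the other 3.

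The boxes of levels by sample show what the rule fixed and what it left free. In the paired-end run the median Epcam+ tumour peak had 11.8 CPM in K14 Epcam+ and 13.2 and 11.6 CPM in the Lgr5 Epcam+ samples. It had 2.42 CPM in Lgr5 Epcam- cells, 1.98 in HF and 1.74 in IFE. The Epcam+ tumour peaks took 4.92%, 5.63% and 5.09% of the counts in peaks of the Epcam+ tumour samples, against 1.19% in Lgr5 Epcam-, 0.894% in HF and 0.905% in IFE. The difference that chose them had a median of 1.35 and reached 3.55 at a peak inside Pam. It was at least 2 in 366 peaks. Within the set, Lgr5 Epcam+ sample 1 was the highest of the 3 Epcam+ tumour samples at 46.3% of the peaks, and Lgr5 Epcam+ sample 2 was the lowest at 43.6%. The set depends most on that sample: without Lgr5 Epcam+ sample 2 the same rule kept 6300 peaks. It kept 4660 without K14 Epcam+ and 4133 without Lgr5 Epcam+ sample 1. A minimum over fewer samples is easier to pass, so each of these counts is above 3558, whichever sample is left out.

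The working description "open only in Epcam+ tumours" held for part of the set. At 1510 peaks (42.4%) all of the other 3 samples were at or below their own median over eligible peaks. At 650 peaks (18.3%) all 3 were above it, so those regions had signal everywhere and more in Epcam+ tumours. Lgr5 Epcam- cells were above their own upper quartile at 483 peaks (13.6%), HF at 248 (6.97%) and IFE at 361 (10.1%). Lgr5 Epcam- cells were the highest of the 3 other samples at 1837 peaks (51.6%), against 41.3% of all eligible peaks at which they exceeded both normals. They were below both normals at 878 (24.7%), against 42.2% of all eligible peaks. They exceeded both normals by at least 1 on the log2 scale at 380 (10.7%), against 16.9% of all eligible peaks. The rule caps how far any of the 3 can rise, which touches all of these shares.

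Values just inside and just outside the limit differ little. A peak near Iqca passed at 1.0001 with 21.9, 36.2 and 27.1 CPM in the K14 Epcam+ and Lgr5 Epcam+ samples, against 10.7 CPM in Lgr5 Epcam-, 0.494 in HF and 1.16 in IFE. The others nearest inside were a chr10 region far from genes and a peak near Rnf222, at 1.0001 and 1.0003. A peak near Brpf3 missed it at 0.9999 with 17.1, 19.5 and 11.8 CPM, against 4.45 in Lgr5 Epcam-, 2.90 in HF and 5.62 in IFE. A peak at Spef1l and a chr4 region far from genes missed it at 0.9998 and 0.9995.

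**Figure D2:**
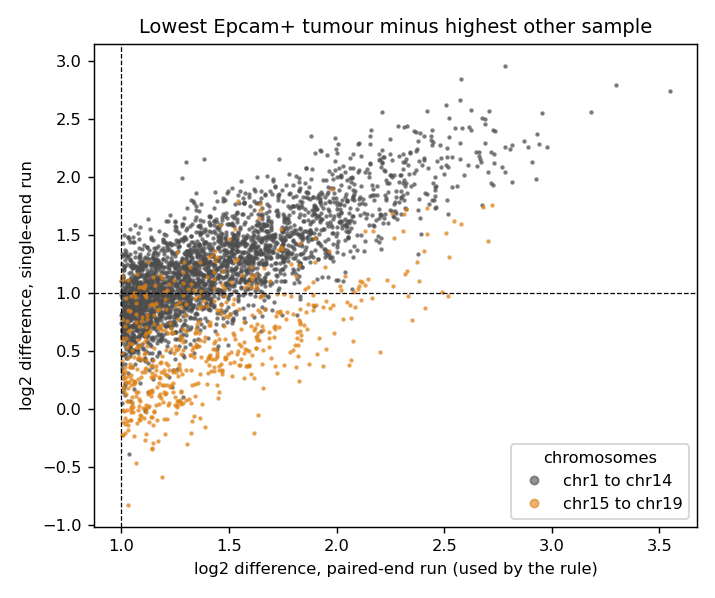
Log2 difference between the lowest Epcam+ tumour sample and the highest other sample at each of the 3558 Epcam+ tumour peaks, in the paired-end run (horizontal axis, used by the rule) and the single-end run (vertical axis). Dashed lines mark 1; 2061 of 2969 peaks on chr1 to chr14 (dark) lie above the horizontal line, against 111 of 589 on chr15 to chr19 (orange).

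The single-end runs, which the rule used only to drop peaks with outlying run ratios, come from the same 6 samples and are given as a description. Epcam+ tumour peaks had median levels of 11.9, 13.1 and 11.8 CPM there in the K14 Epcam+ and Lgr5 Epcam+ samples, against 3.07 CPM in Lgr5 Epcam-, 2.71 in HF and 2.38 in IFE. All 3 Epcam+ tumour samples lay above all others at 3501 of the 3558 peaks, where 10.9% of all eligible peaks did so. The difference was at least 1 at 2172 peaks, where 1.5% of all eligible peaks did so, and its median was 1.11. The scatter of the single-end against the paired-end difference splits by chromosome. On chr1 to chr14 the single-end difference was at least 1 at 69.4% of the peaks, with a median of 1.19. On chr15 to chr19 it was at least 1 at 18.8%, with a median of 0.55. On those chromosomes the single-end level of the K14 Epcam+ sample minus its paired-end level had a median of -0.79 on the log2 scale, so it was lower there. On chr1 to chr14 that median was 0.11, so it was slightly higher. The same medians for Lgr5 Epcam+ sample 1 were -0.01 on chr15 to chr19 and -0.02 on chr1 to chr14. What sets the K14 Epcam+ single-end run apart on these chromosomes was not tested.

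**Figure D3:**
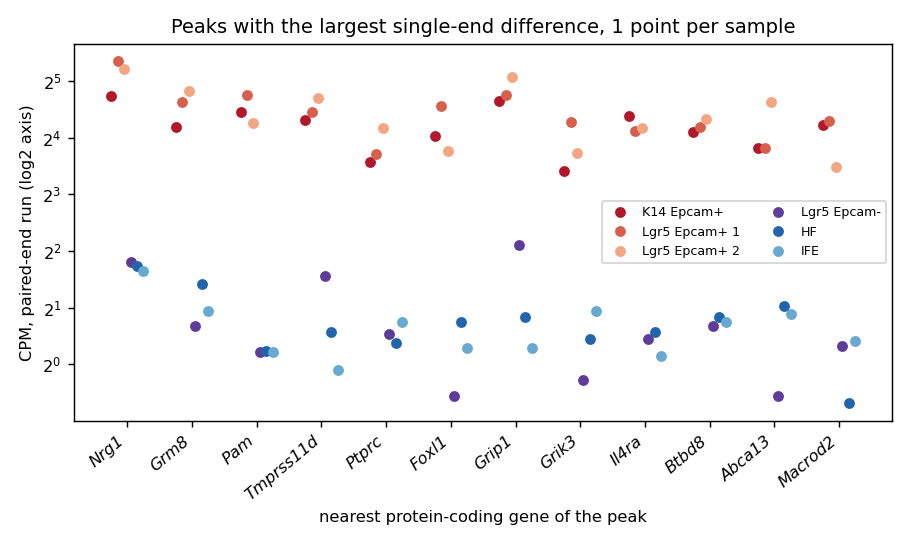
CPM in the paired-end run (log2 axis) of 12 Epcam+ tumour peaks, labelled by nearest protein-coding gene, with 1 point per sample. At each peak the 3 Epcam+ tumour samples lie at 10.7 CPM or more, and the other 3 at 4.30 CPM or less.

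The 12 Epcam+ tumour peaks with the largest single-end difference, 1 per gene, among those with above-median level and a coding gene within 50 kb, are drawn in the plot of 12 peaks by sample. They were 1028 to 1359 bases wide and none touched a gene end. A nearest gene is a position, and no link between peak and gene was measured. The first lay inside Nrg1 (chr8:32202831-32204189), which encodes the ErbB receptor ligand neuregulin 1. It had 26.8, 41.0 and 37.0 CPM in the K14 Epcam+ and Lgr5 Epcam+ samples, against 3.48 CPM in Lgr5 Epcam-, 3.34 in HF and 3.13 in IFE. A peak 16.7 kb from Il4ra (chr7:125534497-125535619), the receptor chain for interleukins 4 and 13, had 20.8, 17.5 and 18.01 CPM in Epcam+ tumours, against 1.35 in Lgr5 Epcam-, 1.48 in HF and 1.10 in IFE. At both, every Epcam+ tumour sample was far above the rest and the other 3 samples lay close together.

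The peak inside Pam (chr1:97996679-97997812), the enzyme that amidates peptide hormones, had 22.0, 27.0 and 19.1 CPM in Epcam+ tumours, against 1.16 in Lgr5 Epcam-, 1.17 in HF and 1.16 in IFE. The peak 2.0 kb from Tmprss11d (chr5:86375405-86376461), a relative of Tmprss11b in the same gene cluster, had 20.02, 22.1 and 25.95 CPM in Epcam+ tumours, against 2.95 in Lgr5 Epcam-, 1.48 in HF and 0.928 in IFE. Here Lgr5 Epcam- cells were the highest of the other samples. The peak 17.2 kb from Foxl1 (chr8:121147865-121148945), a forkhead transcription factor, had 16.3, 23.6 and 13.7 CPM in Epcam+ tumours, against 0.677 in Lgr5 Epcam-, 1.67 in HF and 1.22 in IFE.

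Grm8 (metabotropic glutamate receptor), Grik3 (kainate receptor subunit) and Grip1 (a scaffold for glutamate receptors) each held 1 of the 12. The Grm8 peak (chr6:27976981-27978044) had 18.3, 24.8 and 28.3 CPM in Epcam+ tumours, against 1.59 in Lgr5 Epcam-, 2.66 in HF and 1.91 in IFE. The Grip1 peak (chr10:119810230-119811281) had 25.2, 27.0 and 33.6 CPM, against 4.30 in Lgr5 Epcam-, 1.79 in HF and 1.22 in IFE. The Grik3 peak (chr4:125497414-125498528) had 10.7, 19.4 and 13.2 CPM, against 0.821 in Lgr5 Epcam-, 1.36 in HF and 1.91 in IFE. The groups did not overlap at any of these, which the selection requires.

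The remaining 4 were close in pattern. The peak inside Btbd8 had 17.3, 18.3 and 20.04 CPM in Epcam+ tumours, against 1.59 in Lgr5 Epcam-, 1.79 in HF and 1.68 in IFE. The peak inside Abca13, a lipid transporter gene, had 14.1, 14.1 and 24.7 CPM, against 0.677 in Lgr5 Epcam-, 2.04 in HF and 1.86 in IFE. The peak inside Macrod2, a mono-ADP-ribosylhydrolase, had 18.8, 19.7 and 11.2 CPM, against 1.26 in Lgr5 Epcam-, 0.618 in HF and 1.33 in IFE. The last lay 44.6 kb from Ptprc, which encodes the leukocyte antigen CD45 that the sort used. It had 11.9, 13.2 and 18.1 CPM in Epcam+ tumours, against 1.45 in Lgr5 Epcam-, 1.30 in HF and 1.68 in IFE.

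Ptprc has 16 eligible peaks, 2 of them Epcam+ tumour peaks. Of the list of 15 leukocyte markers, 13 had a peak and Ptprc was the only one with an Epcam+ tumour peak. The summed level of all 60 peaks of that list was 259, 216 and 251 CPM in the K14 Epcam+ and Lgr5 Epcam+ samples, against 207 CPM in Lgr5 Epcam-, 145 in HF and 214 in IFE. Cd8a and Lyz2 had no peak, and S100a8 stands in this list and in the wound list. The summed level of the 156 peaks of 12 vessel markers was 811, 734 and 659 CPM in Epcam+ tumours, against 646 in Lgr5 Epcam-, 593 in HF and 635 in IFE. The summed level of the 159 peaks of 12 fibroblast and pericyte markers was 634, 591 and 682 CPM in Epcam+ tumours, against 906 in Lgr5 Epcam-, 662 in HF and 578 in IFE. The part of such cells in the results was not tested, and in these bulk samples more cells with a region open and more opening per cell cannot be told apart.

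**Figure D4:**
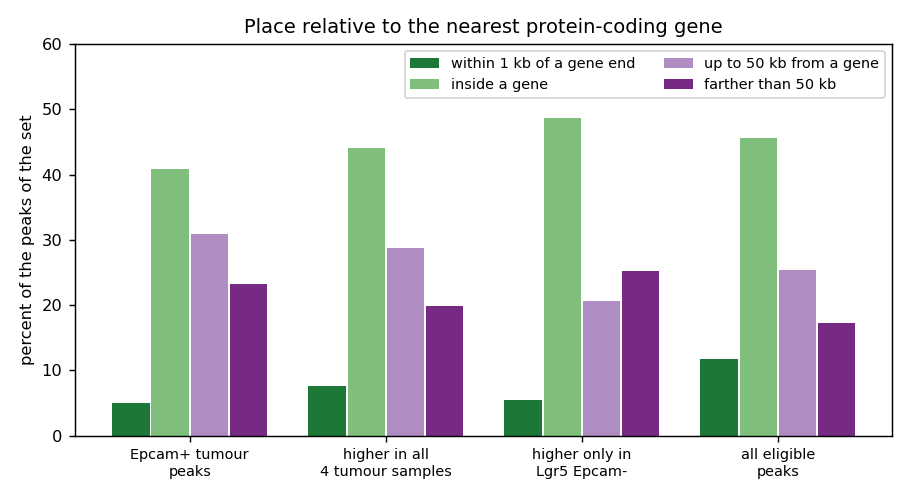
Share of each set of peaks, in percent, by place relative to the nearest protein-coding gene. Among Epcam+ tumour peaks 4.97% lie within 1 kb of a gene end and 23.3% farther than 50 kb from a gene, against 11.8% and 17.2% of all eligible peaks.

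Epcam+ tumour peaks lay away from gene ends. Within 1 kb of either end of a coding gene were 177 peaks (4.97%), against 11.8% of all eligible peaks, 7.55% of the 7959 peaks higher in all 4 tumour samples and 5.51% of the 10937 higher only in Lgr5 Epcam- cells. Inside genes were 40.8%, against 45.6% of all eligible peaks. Outside genes but within 50 kb were 30.9%, against 25.4%, and farther away were 23.3%, against 17.2%. The set higher only in Lgr5 Epcam- cells differed in the same direction for far regions (25.3%) and in the opposite one for regions within 50 kb (20.6%), as the bars by place show. Median width was 1107 bases, against 1098 for all eligible peaks. Widths at or below the commonest value, 1001 bases, were found for 1.29% of Epcam+ tumour peaks, against 29.2% of all eligible peaks and 61.4% of the peaks higher only in Lgr5 Epcam- cells. Position and width were not used by the rule, but weak peaks cannot pass it, and level was not matched here.

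Part of the set lay in runs. Counting neighbours with gaps of at most 25 kb, 1366 of the 3558 (38.4%) lay in 556 runs of 2 or more, and 2192 stood alone. No such share over all eligible peaks is given here, so whether the set is more clustered than they are was not tested. The 3 longest runs held 7 peaks each. One covered 77.9 kb beside Pthlh (chr6:147266558-147344460), the gene of parathyroid hormone-related protein, which squamous carcinomas can secrete. Its 7 peaks summed to 184, 133 and 118 CPM in the K14 Epcam+ and Lgr5 Epcam+ samples, against 23.8 CPM in Lgr5 Epcam-, 18.3 in HF and 18.6 in IFE. A second run 81.9 kb long lay next to it at Klhl42 (chr6:147096684-147178547), a substrate adaptor gene of a ubiquitin ligase. It summed to 122, 102 and 93.2 CPM in Epcam+ tumours, against 22.6 in Lgr5 Epcam-, 12.5 in HF and 9.74 in IFE. In both, K14 Epcam+ was the highest sample. Of the 7 peaks in each, 7 at Pthlh and 6 at Klhl42 kept their place in the set when every sample was first centred on its median in 10 Mb windows.

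The other run of 7 crossed the peptidylarginine deiminase genes Padi3, Padi1 and Padi2 (chr4:140810036-140882415), whose enzymes citrullinate proteins such as keratins and filaggrin in differentiating epidermis. It summed to 114, 169 and 87.2 CPM in K14 Epcam+ and the Lgr5 Epcam+ samples, against 29.5 CPM in Lgr5 Epcam-, 21.1 in HF and 21.9 in IFE. Here Lgr5 Epcam+ sample 1 was highest, and the Lgr5 Epcam+ samples differed more from each other than sample 2 did from K14 Epcam+. Of its 7 peaks, 6 stayed after centring. The Padi3 promoter peak itself had 16.4, 26.1 and 6.26 CPM in Epcam+ tumours, against 2.75 in Lgr5 Epcam-, 2.04 in HF and 0.754 in IFE.

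By nearest gene, 1906 of 17510 genes with a peak had at least 1 Epcam+ tumour peak (10.9%), and 1385 of them had exactly 1. Macrod2 had the most with 12 of its 162 peaks, and it spans 1998 kb. Its 12 peaks summed to 185, 199 and 213 CPM in Epcam+ tumours, against 43.2 in Lgr5 Epcam-, 26.5 in HF and 22.3 in IFE. Nrg1 followed with 9 of 116 over 1084 kb, and these summed to 130, 168 and 178 CPM in Epcam+ tumours, against 36.7 in Lgr5 Epcam-, 28.9 in HF and 22.0 in IFE. Both genes are long and hold many peaks. Of the genes that reached 6 or 7, some were long as well. Grm8 had 6 of 34 over 860 kb, and Pcdh7, a protocadherin, had 6 of 50 over 417 kb. Itpr2, a calcium channel of the endoplasmic reticulum, had 7 of 94 over 394 kb. Grik3 had 7 of 28 over 224 kb. Elk3 had 6 of 28 over 63.7 kb, and Klhl42 had 6 of 13 over 22.2 kb. After centring in 10 Mb windows, 10 peaks stayed at Macrod2, 7 at Nrg1, 7 at Grik3 and 4 at Itpr2. At Grm8 6 stayed, at Klhl42 6, at Elk3 5 and at Pcdh7 3. The single-end difference was at least 1 at 10 peaks of Macrod2, 5 of Nrg1, 4 of Grik3 and 5 of Itpr2. It was so at 6 of Grm8, 4 of Klhl42, 5 of Elk3 and 3 of Pcdh7.

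Peaks near Epcam+ tumour peaks leaned the same way without having been chosen. At the 9779 eligible peaks within 10 kb, the median of the mean log2 level of the Epcam+ tumours minus that of the other samples was 0.43, and 69.7% were above 0. At the 34618 within 50 kb it was 0.19, with 59.2% above 0, and at the 135389 non-member peaks beyond 50 kb it was -0.28 with 36.3% above 0. In the single-end run the 3 medians were 0.35, 0.13 and -0.31. With each Epcam+ tumour sample taken alone, the paired-end median within 50 kb was 0.26 for K14 Epcam+, 0.16 for Lgr5 Epcam+ sample 1 and 0.11 for sample 2. Peaks this close to each other are not independent of the chosen ones.

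**Figure D5:**
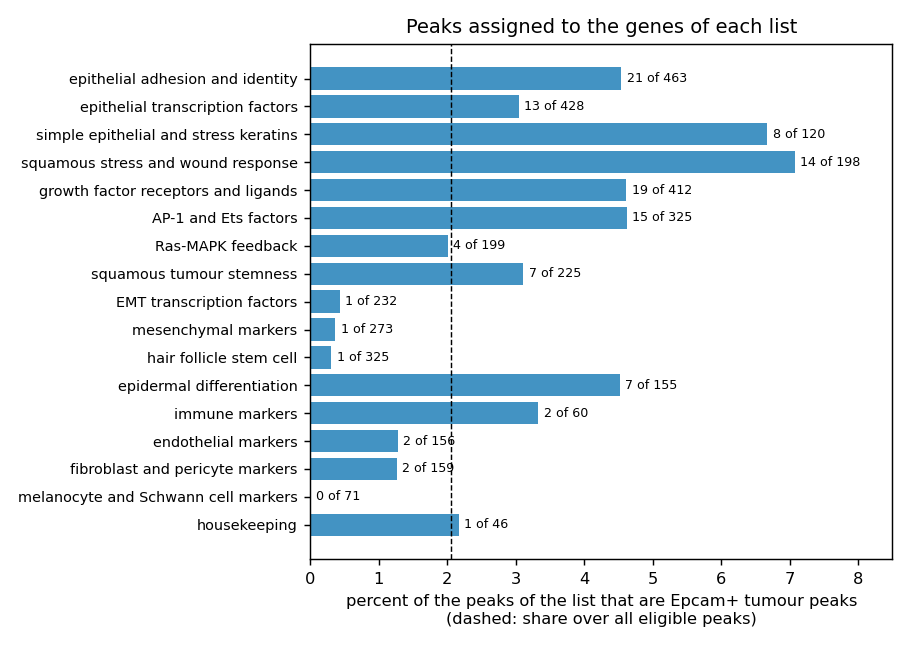
Percent of the eligible peaks assigned to the genes of each list that are Epcam+ tumour peaks, with the counts beside the bars; the dashed line marks 2.05%, the share over all eligible peaks. The bars are longest for squamous stress and wound response (7.07%) and the keratin list (6.67%), and the EMT factor, mesenchymal and hair follicle stem cell lists are at 0.431% or less.

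Over 17 lists of named genes, 69 of the 239 genes with a peak had an Epcam+ tumour peak. These shares are read against the 10.9% of all genes and 2.05% of all peaks, without a test, since both the lists and the peaks were chosen with results known. A gene with more peaks has more chances to hold one of the set. The number of peaks per gene was not matched, so the shares of genes are not like for like. The bars by gene list show squamous stress and wound genes first: 9 of 20 had an Epcam+ tumour peak, and 14 of 198 peaks (7.07%) were in the set. Il24, a cytokine of the interleukin 10 family, had one 4.7 kb away with 32.6, 47.5 and 34.2 CPM in the K14 Epcam+ and Lgr5 Epcam+ samples, against 6.86 CPM in Lgr5 Epcam-, 8.03 in HF and 7.88 in IFE. Plaur, the urokinase receptor, had one inside the gene with 13.9, 15.8 and 14.4 CPM in Epcam+ tumours, against 3.72 in Lgr5 Epcam-, 2.04 in HF and 2.78 in IFE. Il1b had one 25.5 kb away with 20.2, 25.9 and 25.9 CPM, against 6.77 in Lgr5 Epcam-, 2.41 in HF and 7.36 in IFE. Sprr1a and Sprr2d had none.

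Among keratins, intermediate filament proteins of epithelia, 5 of 16 genes and 8 of 120 peaks (6.67%) were in the set. The 5 were the wound keratins Krt6a, Krt6b, Krt16 and Krt17 and the basal keratin Krt14, whereas the simple epithelial keratins Krt8 and Krt18 had none. The peak at the end of Krt17 (chr11:100254206-100256331) had 48.5, 63.8 and 59.5 CPM in Epcam+ tumours, against 5.03 in Lgr5 Epcam-, 12.3 in HF and 15.01 in IFE. The peak at the end of Krt16 (chr11:100248636-100249723) had 26.7, 33.4 and 31.9 CPM, against 6.19 in Lgr5 Epcam-, 3.64 in HF and 6.67 in IFE. Both normals had signal at Krt17, and Lgr5 Epcam- cells had the least. These keratins have closely similar copies in the genome, so their counts are uncertain where reads could be shared. Krt5, the partner of Krt14, had none among 8 peaks.

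Of receptors and ligands of growth signalling, 8 of 15 genes and 19 of 412 peaks (4.61%) were in the set. Besides Nrg1, Ereg (epiregulin, an Egf receptor ligand) had a peak 20.2 kb away with 14.4, 14.8 and 19.95 CPM in Epcam+ tumours, against 3.09 in Lgr5 Epcam-, 2.04 in HF and 3.19 in IFE. Met, the receptor of hepatocyte growth factor, had one inside the gene with 30.4, 46.3 and 26.9 CPM, against 6.62 in Lgr5 Epcam-, 3.95 in HF and 5.86 in IFE. Fgfr2, a fibroblast growth factor receptor, had one 40.4 kb away with 19.6, 18.7 and 11.9 CPM, against 2.56 in Lgr5 Epcam-, 2.41 in HF and 1.45 in IFE. Areg, Btc, Egfr and Hbegf also had at least 1, and Erbb2 and Erbb3 had none.

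Of AP-1 and Ets factors, nuclear targets of Ras signalling, 7 of 15 genes and 15 of 325 peaks (4.62%) were in the set. Elk3, an Ets factor that can repress, had a peak inside the gene with 22.6, 24.0 and 16.3 CPM in Epcam+ tumours, against 3.53 in Lgr5 Epcam-, 2.47 in HF and 2.26 in IFE. Fos, an AP-1 subunit, had one 23.3 kb away with 12.6, 13.6 and 10.8 CPM, against 1.45 in Lgr5 Epcam-, 1.48 in HF and 2.73 in IFE. Ets2 had one 19.3 kb away with 30.8, 42.4 and 9.59 CPM, against 2.51 in Lgr5 Epcam-, 1.54 in HF and 2.73 in IFE. Fosl1, the AP-1 subunit Fra-1, had none: its 4 peaks summed to 59.6, 78.0 and 40.7 CPM in Epcam+ tumours and to 65.8 CPM in Lgr5 Epcam- cells, against 14.4 in HF and 17.9 in IFE. Ras-MAPK feedback genes stood at 3 of 12 genes and 4 of 199 peaks (2.01%), near the share of all peaks. Phlda1 had one 18.8 kb away with 22.8, 24.3 and 34.0 CPM in Epcam+ tumours, against 5.27 in Lgr5 Epcam-, 1.98 in HF and 1.45 in IFE.

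Genes of epithelial identity were hosts as well. Among adhesion genes 11 of 25, and 21 of 463 peaks (4.54%), were in the set. Ctnnd1, the gene of p120 catenin that steadies cadherins at junctions, had one 47.3 kb away with 28.6, 17.5 and 19.4 CPM in Epcam+ tumours, against 2.32 in Lgr5 Epcam-, 1.85 in HF and 1.91 in IFE. Cdh1, the gene of E-cadherin, had 1 of 28 peaks in the set, and its other 27 summed to 232, 242 and 203 CPM in Epcam+ tumours, against 79.2 in Lgr5 Epcam-, 229 in HF and 284 in IFE. Most of the Cdh1 signal was shared with normal epithelium. Among epithelial transcription factors 8 of 20 genes and 13 of 428 peaks (3.04%) were in the set. Tfap2a, a factor of surface epithelia, had one 29.3 kb away with 16.2, 13.8 and 18.01 CPM in Epcam+ tumours, against 3.09 in Lgr5 Epcam-, 2.35 in HF and 2.15 in IFE. Trp63 had 3 of 67 and Grhl2 had 2 of 36. The other Trp63 peaks summed to 247, 343 and 277 CPM in Epcam+ tumours, against 161 in Lgr5 Epcam-, 383 in HF and 395 in IFE. The other Grhl2 peaks summed to 242, 298 and 215 CPM, against 87.75 in Lgr5 Epcam-, 292 in HF and 291 in IFE.

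Epidermal differentiation genes had 5 of 16 genes and 7 of 155 peaks (4.52%). All 155 peaks summed to 633.8, 851.5 and 786.7 CPM in Epcam+ tumours, against 285.5 in Lgr5 Epcam-, 713 in HF and 1247 in IFE. As a whole the list was thus highest in IFE. Klk7, a protease of the cornified layer, had one 2.3 kb away with 22.3, 23.8 and 35.9 CPM in Epcam+ tumours, against 4.30 in Lgr5 Epcam-, 3.52 in HF and 4.06 in IFE. Abca12, a lipid transporter of the skin barrier, had 3 of 30, and one of these had 31.2, 52.0 and 39.1 CPM, against 6.81 in Lgr5 Epcam-, 3.46 in HF and 8.81 in IFE. Genes tied to tumour-propagating squamous cells had 5 of 10 genes and 7 of 225 peaks (3.11%). Of these, Itgb1, the integrin beta 1 chain, had one inside the gene with 20.3, 29.6 and 20.8 CPM, against 4.25 in Lgr5 Epcam-, 1.54 in HF and 2.15 in IFE. Pitx1, a homeobox factor, had one 31.2 kb away with 12.3, 14.2 and 8.51 CPM, against 2.03 in Lgr5 Epcam-, 1.42 in HF and 1.51 in IFE.

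The lists of the mesenchymal state were thinly represented. Among EMT transcription factors only Prrx1 of 12 genes, with 1 of 232 peaks (0.431%), was in the set, and Zeb1 had none among 21 peaks, which summed to 68.7, 62.8 and 98.1 CPM in Epcam+ tumours, against 144 in Lgr5 Epcam-, 61.0 in HF and 34.5 in IFE. Among mesenchymal markers only Sparc of 17 genes, with 1 of 273 peaks (0.366%), was in the set, and Vim had none. Regions as high in Lgr5 Epcam- cells, HF or IFE as in Epcam+ tumours cannot pass the rule, which bears on all these low shares. Hair follicle stem cell genes had 1 of 12 genes, Cd34, and 1 of 325 peaks (0.308%). All 325 peaks summed to 1317, 1302 and 1520 CPM in Epcam+ tumours, against 1556 in Lgr5 Epcam-, 2770 in HF and 1623 in IFE. The Cd34 peak had 28.1, 28.4 and 46.3 CPM in Epcam+ tumours, against 8.75 in Lgr5 Epcam-, 8.03 in HF and 7.07 in IFE. Vessel markers had 2 of 156 peaks in the set (1.28%), at Pecam1 and Vwf, fibroblast and pericyte markers 2 of 159 (1.26%), at Pdgfra and Col6a3, melanocyte and Schwann cell markers 0 of 71, and housekeeping genes 1 of 46 (2.17%), at Actb. The leukocyte list had 2 of 60 (3.33%), both at Ptprc. The Pecam1 peak, at the end of the gene of the sort antigen CD31, had 28.5, 28.3 and 38.0 CPM in Epcam+ tumours, against 5.70 in Lgr5 Epcam-, 5.93 in HF and 4.93 in IFE.

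Tumours of the 2 Cre drivers were also set against each other. The rule takes the lowest of the Epcam+ tumour samples, so a peak low in any of them is less likely to pass. The values for the set are therefore a description. Its 5th percentile of the log2 ratio of Lgr5 Epcam+ over K14 Epcam+ was -0.39, against -1.02 over all peaks. Its 95th percentile was 1.0, against 1.07, so the upper end was little narrowed. Lgr5 Epcam+ (n = 2) was compared with K14 Epcam+ (n = 1) on the summed runs with edgeR's quasi-likelihood test over 177238 peaks. The labels do not say whether the Lgr5 Epcam+ samples came from separate animals, and K14 Epcam+ was assumed to vary as they do. Of the 3558 Epcam+ tumour peaks 0 passed an adjusted p of 0.05, where 0.00846% of all peaks did, and the smallest adjusted p was 0.703. DESeq2 also called 0, where 30 of all peaks were called higher and 24 lower. At an unadjusted p under 0.05 there were 107 (3.01%), where 5.65% of all peaks passed. Of the 107, 105 were higher in Lgr5 Epcam+ and 2 lower, where 5364 of all peaks were higher and 4655 lower. With total-count scaling 59 of the set were higher and 10 lower, where 3382 of all peaks were higher and 7901 lower. With DESeq2 there were 91 in the set (2.56%), where 2.93% of all peaks passed. The median log2 ratio of Lgr5 Epcam+ over K14 Epcam+ was 0.28 over the set and 0.03 over all peaks, with a median standard error of 0.56 for a single peak of the set. With total-count scaling these medians were 0.09 and -0.15, so the set stood above all peaks by 0.25 under either scaling. With 1 residual degree of freedom, a p that misses the threshold does not show that the tumours were alike.

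With the runs summed, the median ratio was higher on chr15 to chr19, where the K14 Epcam+ single-end run stood apart, both in the set and over all eligible peaks. It was 0.67 in the set and 0.45 over all eligible peaks there, and 0.23 and -0.06 on chr1 to chr14. Of the 105 peaks higher in Lgr5 Epcam+ at an unadjusted p under 0.05, 58 were among the 589 on chr15 to chr19. The other 47 were among the 2969 on chr1 to chr14. In the paired-end run alone these counts were 16 and 65. Shares of all peaks that passed in each block are not given here. In the paired-end run alone the set's medians were 0.31 on chr15 to chr19 and 0.27 on chr1 to chr14, and all eligible peaks had 0.07 and -0.01. Peaks near the ends of the range were looked up after their values were seen. The highest ratio, 2.45, was at a chr16 region far from genes, and the lowest, -1.20, at a peak near Tmem229b. A peak 26.7 kb from Cldn17, a claudin of cell junctions, had 17.8 and 22.3 CPM in the Lgr5 Epcam+ samples, against 5.08 CPM in K14 Epcam+ (log2 ratio 2.33 ± 0.60 SE, edgeR adjusted p = 0.703). It lies on chr16. A peak inside Sash1 had 3.73 and 3.84 CPM in Lgr5 Epcam+, against 10.6 CPM in K14 Epcam+ (log2 ratio -1.18 ± 0.55 SE, edgeR adjusted p = 0.884). Among the 12 peaks drawn by sample, the log2 ratios ran from -0.07 at Macrod2 to 0.63 at Grik3, none past the threshold.

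Differences between the normals, and between the Lgr5 Epcam+ samples, were read by a rule of size with no test, namely an absolute log2 ratio that reaches 1 when the runs are summed and 0.5, with the same sign, in each run by itself. HF was higher than IFE at 54 Epcam+ tumour peaks (1.52%), where 7.05% of all eligible peaks passed, and lower at 82 (2.30%), where 5.19% passed. With a pseudocount of 2 the counts were 12 and 27. Lgr5 Epcam+ sample 1 was higher than sample 2 at 173 (4.86%), where 3.56% of all eligible peaks passed, and lower at 60 (1.69%), where 5.79% passed. Both normals were low at most of the set, with the medians of 1.98 CPM in HF and 1.74 CPM in IFE given above.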

How the data were processed

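Accessibility was measured by ATAC-seq in 6 samples of 5 groups, each sequenced once single-end and once paired-end. The authors deposited raw counts per peak on 1 shared list of peaks; Bowtie2, HOMER, bedtools, HTSeq and mm10 are named per the submitters' processing notes, but neither their versions and filters nor the peak calling is described in the labels. The HTSeq summary rows were left out of library sizes; counts in no peak were 48.9% to 78.7% of the counts in peaks or no feature. The 2 runs of a sample differed by more than counting noise (variance 1.42 to 2.80 times binomial), and were summed and treated as 1 sample. The labels do not say whether samples come from separate animals, so p-values measure only the spread between these samples.

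The selection used log2(CPM + 0.5) of the paired-end counts, and dropped peaks whose paired-end total exceeded 3 times the single-end total. Lgr5 Epcam+ and K14 Epcam+ were compared with edgeR 4.0.16 in R 4.3.3 with limma 3.58.1. Peaks passed filterByExpr at a count of 10, libraries were scaled by TMM, 1 robust quasi-likelihood model covered the 6 samples, and p-values were adjusted by Benjamini-Hochberg over all peaks kept. The biological coefficient of variation was 0.325. DESeq2 1.42.0 was an alternative. The script was tested on simulated data. Each peak was assigned to the nearest coding gene span of RefSeq GRCm38.p6 within 50 kb; a peak that met several spans went to the gene with an end nearest to its centre. Promoter sequences cover 250 bases before to 50 after a start; those of chr18 were not used here, nor was genome sequence of distal peaks. The members and lists were chosen with earlier results of these data known. Named peaks follow rules: the 12 largest single-end differences, the 8 genes with the most members, up to 4 genes of a list with a member and 2 without, the 3 peaks on either side of the limit, the 3 longest runs, and the marker genes. Promoters shown and peaks at the ends of the Lgr5 Epcam+ over K14 Epcam+ range were chosen after their values were seen. One allele of the tumour mice and 1 gene of a list are not reported here.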

Additional observations from a re-analysis of the deposited data

How the results depend on the processing

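The number of Epcam+ tumour peaks, 3558, moved to 2094 with a pseudocount of 2, to 8772 with a limit of 0.5 and to 366 with a limit of 2. Leaving out 1 Epcam+ tumour sample gave 4133 to 6300, the highest without Lgr5 Epcam+ replicate 2. The number with a single-end difference of at least 1, 2172, was 1436 with a pseudocount of 2, and 2288 to 2581 when 1 Epcam+ tumour sample was left out. Other scalings, pseudocounts, runs and filters gave 2603 to 4412 Epcam+ tumour peaks. A gene end of 2 kb put 8.12% of them at gene ends and 39.0% inside genes, and a reach of 10 kb put 11.3% near and 42.9% far from genes. HF against IFE passed at 12 higher and 27 lower peaks with a pseudocount of 2, and at 0 and 0 with limits of 2 and 1. Neighbours within 10 kb had a median log2 difference of 0.43, against 0.19 within 50 kb. With a reach of 10 kb, 44 list genes had an Epcam+ tumour peak. The Lgr5 Epcam+ over K14 Epcam+ fits, by another scaling, no filter, a single run or DESeq2, called 0 Epcam+ tumour peaks each. The lowest edgeR adjusted p was 0.0561, in the single-end run. Over all peaks these fits called unlike numbers. Total-count scaling called 14 higher in Lgr5 Epcam+ and 75 lower, and no filter called 1 and 14. The paired-end run alone called 6 and 26, the single-end run 200 and 56, and DESeq2 30 and 24. Leaving out a Lgr5 Epcam+ replicate leaves no residual degree of freedom, so that test has no such value. A promoter overlap of at least 150 bases, chosen after seeing the data, kept 36 of 39 peaks. No paired analysis was possible because the groups compared share fewer than 2 replicate numbers. Depth limits single peaks: 1 CPM is 15.9 to 32.7 counts in a run.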

Other observations

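Regional level differed between the samples. In 257 windows of 10 Mb the median log2 level of the Epcam+ tumours minus that of the other samples ran between -0.92 and 1.15, and was -0.08 over all eligible peaks. Epcam+ tumour peaks were 0.88% of the eligible peaks of chr19 and 1.26% of those of chr9, against 2.55% on chr5. When each sample was centred on its median in such windows, the rule gave 4059 peaks, of which 3069 were among the 3558, and the shares were 2.12% on chr19 and 2.58% on chr9.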
